A study of Mus musculus with 9 samples.

Results

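The mitochondrial genome transcripts were the 37 genes whose Ensembl ID carries a mouse symbol starting with mt-, of 53700 gene IDs in the expression table. They comprise 13 mRNAs, 2 rRNAs and 22 tRNAs, all of which were listed in the table. They were chosen by name and not by their values. RNA was sequenced from the epigonadal white adipose tissue (eWAT), the fat depot around the ovary and uterus, of 9 mice. All mice are labelled wild type and week 12, and the study describes them as female NSG mice, an immunodeficient strain that lacks mature lymphocytes and natural killer cells. Tumour-bearing mice (tumour 17, 21 and 22) carried orthotopic tumours of MDA-MB-231 cells, an established human line from a triple-negative breast cancer. EV mice (EV 36, 37 and 41) received MDA-MB-231 extracellular vesicles by tail vein, 10 times over 5 weeks. Untreated mice (untreated 4, 7 and 10) are labelled with neither, although the study also speaks of tumour-free and of PBS-injected controls. Each library is labelled as a separate numbered mouse, and 1 host strain and 1 tumour cell line limit the groups as models.

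The mitochondrial genome is a small circle present in many copies per cell. Both of its strands are transcribed into long precursors, which are cut at the tRNAs into rRNAs, tRNAs and mRNAs. The 13 mRNAs encode subunits of respiratory complexes I, III, IV and the ATP synthase (complex V), and the other subunits of those complexes come from the nucleus. In adipose tissue, mitochondria oxidise fatty acids and supply the ATP and precursors for lipid synthesis, and in thermogenic fat they also make heat. Mitochondrial mRNAs are polyadenylated. In human cells mt-Nd6, encoded on the light strand, is the known exception. In bulk tissue, fewer cells of a type and less RNA per cell cannot be told apart.

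The 4 tRNA genes with the most counts are shown because they held most of the tRNA signal. All 4 lie on the light strand, and each is given whole, 5′ to 3′, from GENCODE M21.
mt-Ts1: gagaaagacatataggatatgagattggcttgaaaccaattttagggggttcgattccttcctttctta
mt-Te: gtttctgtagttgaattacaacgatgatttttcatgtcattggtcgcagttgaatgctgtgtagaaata
mt-Tq: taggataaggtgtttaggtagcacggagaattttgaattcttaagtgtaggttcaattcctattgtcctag
mt-Tp: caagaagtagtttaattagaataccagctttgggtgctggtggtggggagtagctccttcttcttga

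The first 43 bases of mt-Nd3, a complex I subunit, are shown beside those of Gm28438, its copy on chromosome 1. The copies matter below because they took much of the mitochondrial signal. The pair had 1 mismatch over 345 aligned bases, T3C, with position 1 at the 5′ end of mt-Nd3 and the mitochondrial base first. The capitals mark that base.
mt-Nd3: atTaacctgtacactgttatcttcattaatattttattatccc
Gm28438: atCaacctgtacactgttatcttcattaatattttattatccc

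Libraries held 20097743 to 26149300 estimated counts. They differed in tissue makeup before any question about mitochondria was asked. The 12 adipocyte markers summed to 77379, 75403 and 68776 CPM (counts scaled to a common library total) in tumour libraries, to 25103, 78644 and 24991 in EV libraries and to 92701, 4645 and 12168 in untreated libraries. None of the 12 was at 0 in any library, so some adipocyte RNA was present in all 9. The 10 ovary markers summed to 5785 and 8758 CPM in EV 36 and EV 41 and to 12322 CPM in untreated 10, against at most 13.9 CPM elsewhere. The 6 smooth muscle markers reached 16651 CPM in untreated 7, against 575 to 4064 CPM in the other libraries, and the 6 oviduct and uterus markers reached 2518 CPM there, against 8.16 to 359 CPM elsewhere. The 8 skeletal muscle markers summed to 2066, 5010 and 2633 CPM in tumour libraries, 11.6, 61.8 and 10.1 CPM in EV libraries and 7.47, 419 and 13.9 CPM in untreated libraries. The part of these differences in the mitochondrial values was not tested.

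Mitochondrial mRNA varied widely among tumour mice and among untreated mice, and little among EV mice. It took 4.35%, 9.74% and 3.70% of the library in tumour 17, 21 and 22. In EV 36, 37 and 41 it took 3.68%, 5.05% and 4.04%, and in untreated 4, 7 and 10 it took 8.72%, 2.43% and 3.34%. Tumour 21 and untreated 4 stood above the other libraries and untreated 7 was the lowest. The EV libraries lay close together inside the range of the untreated ones. Means were 5.93 ± 3.31% in tumour libraries, 4.26 ± 0.710% in EV libraries and 4.83 ± 3.40% in untreated libraries (SD, n = 3 each). The highest library was 4.001 times the lowest, or 2.07 times over the 7 libraries without tumour 21 and untreated 4.

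Exact 2-sided permutation tests on the log2 share did not separate the groups, in a design whose smallest possible p is 0.1. The mean log2 difference was 0.38 for tumour over untreated (exact permutation p = 0.5), 0.35 for tumour over EV (p = 0.6) and 0.03 for EV over untreated (p = 1). The last is positive although the EV mean is the lower one in percent. Adjusted over the 9 tests of the 3 transcript classes, the smallest p was 0.9. Without tumour 21 the log2 difference was -0.04 for tumour over untreated and -0.07 for tumour over EV. Without untreated 4 it was 0.92 for tumour over untreated and 0.57 for EV over untreated, and without untreated 7 it was -0.00 and -0.35 for these 2 comparisons.

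The adipocyte sums followed this order only in part. Untreated 7 had the lowest mitochondrial mRNA, the lowest adipocyte sum and the highest sums of the smooth muscle and of the oviduct and uterus lists. Across the 9 libraries the log2 sum of mitochondrial mRNA had a Pearson r of 0.76 with the adipocyte list, -0.77 with the smooth muscle list, -0.72 with the oviduct and uterus list, -0.81 with 5 fibroblast markers and 0.10 with the skeletal muscle list, given as a description of libraries that share a total. Among the 5 libraries with Adipoq above 2000 CPM, mitochondrial mRNA still ran between 3.70% in tumour 22 and 9.74% in tumour 21.

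Mitochondrial rRNA was a small fraction of the signal and varied less between libraries. The part of library preparation in that fraction was not tested. mt-Rnr1 and mt-Rnr2, the RNAs of the small and large mitochondrial ribosomal subunits, together made 0.0582%, 0.0801% and 0.0607% of tumour libraries. They made 0.0476%, 0.0618% and 0.0533% of EV libraries and 0.112%, 0.0555% and 0.0497% of untreated libraries. Untreated 4 was highest, at 2.36 times the lowest library, and the groups overlapped. Log2 differences were -0.04 for tumour over untreated (exact permutation p = 1), 0.280 for tumour over EV (p = 0.3) and -0.33 for EV over untreated (p = 0.6).

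Within the mitochondrial total, rRNA made 1.32%, 0.816% and 1.61% in tumour libraries, 1.278%, 1.21% and 1.30% in EV libraries and 1.27%, 2.23% and 1.47% in untreated libraries. The library with the most mitochondrial mRNA, tumour 21, had the lowest rRNA fraction and the one with the least, untreated 7, the highest. The difference in percentage points was -0.406 for tumour over untreated (exact permutation p = 0.5), -0.0129 for tumour over EV (p = 1) and -0.393 for EV over untreated (p = 0.3).

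tRNAs were almost undetected. The 22 genes together had 18, 25 and 12 counts in tumour libraries, 8, 18 and 20 in EV libraries and 29, 16 and 12 in untreated libraries. The groups overlapped, and log2 differences of the summed share were 0.08 for tumour over untreated, 0.36 for tumour over EV and -0.29 for EV over untreated (exact permutation p = 1, 0.6 and 0.6). Of the 22, 12 had no count in any library. A count of 0 allows up to 3 counts per library, or 0.115 to 0.149 CPM depending on depth. Why these tRNAs had no counts was not tested.

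The tRNA counts that were seen came mostly from the light strand. Light-strand tRNAs held 146 of 158 counts (92.4%), from 6 of 8 genes, while 4 of the 14 heavy-strand tRNAs held the other 12. mt-Ts1, a serine tRNA, had 10, 20 and 5 counts in tumour libraries, 2, 9 and 16 in EV libraries and 20, 6 and 8 in untreated libraries. It was the only tRNA to pass the filter on low counts. The glutamate tRNA mt-Te had 0 to 5 counts per library, the glutamine tRNA mt-Tq 0 to 3, the proline tRNA mt-Tp 0 to 3 and the asparagine tRNA mt-Tn 0 to 4. The study's methods mention an orientation mode for the alignment, and the sources used here do not say whether counting used the strand. Without it, reads from the 2 strands at a light-strand gene, mt-Nd6 included, cannot be told apart.

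**Figure D1:**
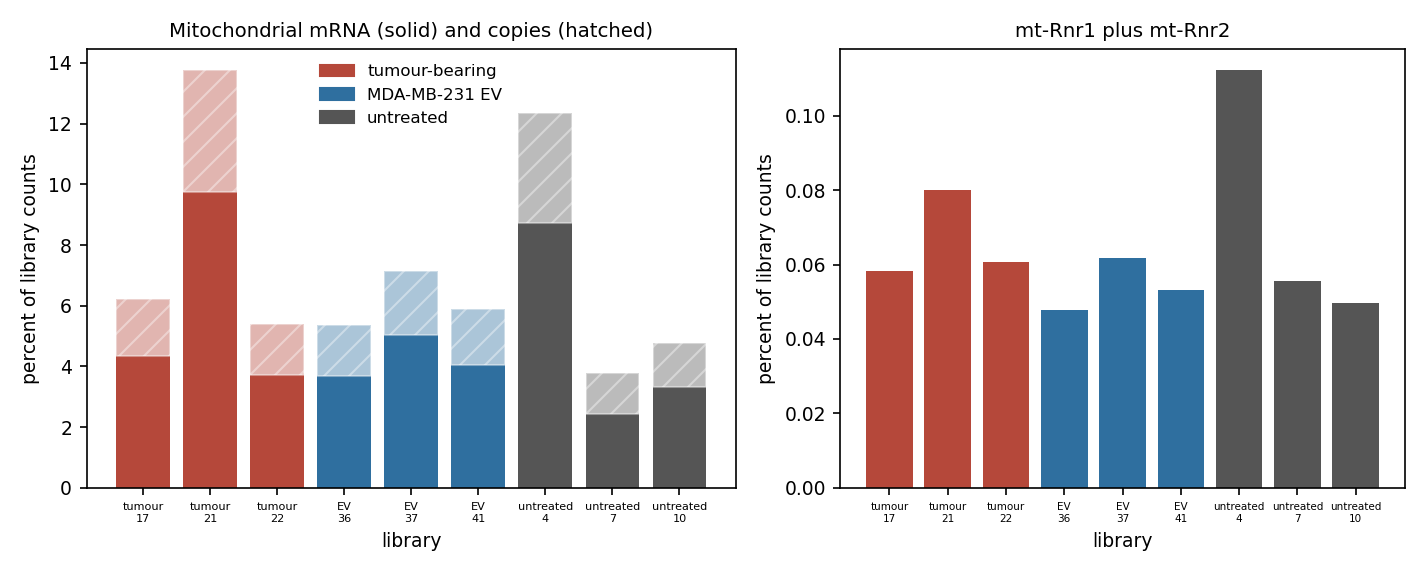
Percent of library counts in mitochondrial mRNA (left, solid part, with the chromosome 1 copies hatched on top) and in mt-Rnr1 plus mt-Rnr2 (right), 1 bar per library in the order tumour, EV and untreated. Tumour 21 (9.74%) and untreated 4 (8.72%) stand above the other 7 libraries in mRNA, and untreated 4 is highest in rRNA (0.112%).

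How much of a gene's signal stood in its mitochondrial row differed widely between genes. 7 of the mRNAs have a copy on chromosome 1 that is at least 99% identical over the stretch they share. Of the 7 copies, 6 had counts. The copy rows together took 1.87%, 4.03% and 1.69% of tumour libraries, 1.67%, 2.10% and 1.86% of EV libraries and 3.64%, 1.35% and 1.43% of untreated libraries. They were highest in the libraries where mitochondrial mRNA was highest. With them added, mitochondrial mRNA made 6.22%, 13.8% and 5.39% of tumour libraries, 5.35%, 7.15% and 5.90% of EV libraries and 12.4%, 3.79% and 4.77% of untreated libraries.

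The complex IV subunit mt-Co2 kept 1.06% to 2.77% of the counts of its pair with Gm28661, an identical stretch of 681 bases. The complex V subunit mt-Atp6 kept 3.32% to 8.75% of its pair with Gm10925 (678 identical bases), and mt-Co3, also of complex IV, kept 0.572% to 12.6% of its pair with Gm28437 (783 identical bases). The complex I subunit mt-Nd4l kept 7.02% to 25.9% of its pair with Gm10222 (294 identical bases). For these genes most of the signal was therefore recorded on chromosome 1.

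The remaining pairs divided in other ways. mt-Nd3 held 52.9%, 47.7% and 53.4% of its pair in tumour libraries, 32.02%, 42.9% and 34.5% in EV libraries and 44.5%, 18.9% and 44.7% in untreated libraries, so that its copy held more than the mitochondrial row in 7 of 9 libraries. mt-Co1, the catalytic core of complex IV, held 91.8% to 99.7% of its pair with Gm29216, which matches only a stretch of 483 bases at 99.8% identity. mt-Nd4 held all of its pair, since Gm28439 had 0 counts in every library. Another 9 nuclear copies had at most 10.8 counts in a library.

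The sum of a pair was a whole number, within a tolerance of 0.011, in 38 of the 54 combinations of a pair and a library with counts in the copy. The mitochondrial rows on their own were whole, within 0.001, in 0 of the 54. The counts of these pairs were thus divided between the 2 rows by estimation. The division also moved between libraries: the mt-Co3 row alone ranged over 32.8 times between the lowest and highest CPM, mt-Nd3 over 12.96 times and mt-Nd4l over 10.0 times. With the copy added the same ranges were 2.77, 5.13 and 3.30 times. Values of these 3 genes and of mt-Co2 and mt-Atp6 from the mitochondrial row alone are therefore uncertain.

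**Figure D2:**
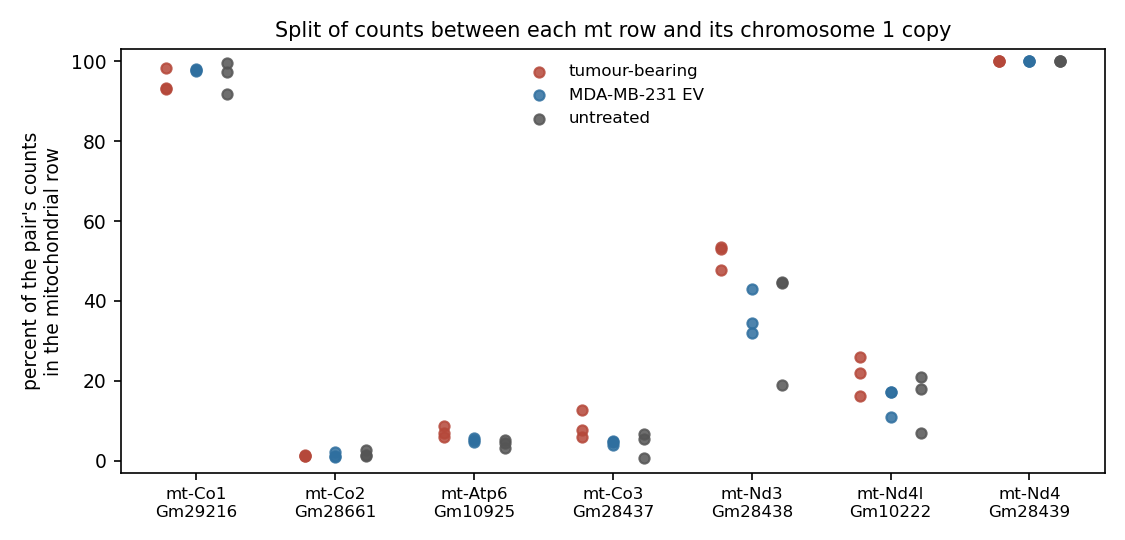
Percent of the counts of each pair of mitochondrial gene and chromosome 1 copy that stood in the mitochondrial row, 1 point per library, with tumour, EV and untreated libraries from left to right within a pair. mt-Co2 lies at 1.06% to 2.77% and mt-Co1 at 91.8% to 99.7%, and mt-Nd3 runs between 18.9% in untreated 7 and 53.4% in tumour 22.

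Per kilobase, and with the copies added, the order of the mRNAs was nearly the same in each library. The complex IV subunits came first. mt-Co1 averaged 16490 CPM per kilobase over the 9 libraries and was the highest in 9 of 9. mt-Co2 (11424 CPM per kilobase) and mt-Co3 (9859) followed, and mt-Co2 was above mt-Co3 in 7 of 9 libraries, the exceptions being tumour 17 and 22. mt-Atp6 (7979 CPM per kilobase) and the complex III subunit mt-Cytb (6393) came next, in that order, in 9 of 9.

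The complex I mRNAs had lower levels per kilobase. mt-Nd1 averaged 4435 CPM per kilobase and mt-Nd4 3886, and mt-Nd1 was the higher in 8 of 9 libraries. mt-Atp8, whose reading frame overlaps that of mt-Atp6, stood next at 3400 CPM per kilobase. mt-Nd2 (2653), mt-Nd4l (2239), mt-Nd3 (1795) and mt-Nd5 (1745 CPM per kilobase) had neighbours that changed places: mt-Nd2 exceeded mt-Nd4l in 8 of 9 libraries, mt-Nd4l exceeded mt-Nd3 in 7 and mt-Nd3 exceeded mt-Nd5 in 5. The light-strand mRNA mt-Nd6 was the lowest mRNA in 9 of 9, at 1156 CPM per kilobase.

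Per kilobase, both rRNAs lay below every mRNA of the same library. The part of library preparation in this was not tested, so it is not read as a level in the tissue. mt-Rnr1 averaged 306 CPM per kilobase and mt-Rnr2 222, and mt-Nd6 was 1.78 to 9.06 times mt-Rnr1. mt-Rnr1 exceeded mt-Rnr2 per kilobase in 8 of 9 libraries. In counts, mt-Rnr2 per mt-Rnr1 was 0.956, 1.70 and 0.843 in tumour libraries, 1.26, 1.26 and 1.34 in EV libraries and 1.10, 1.498 and 1.12 in untreated libraries. Tumour 17 and 22 were the lowest 2 of the 9 and tumour 21 the highest.

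**Figure D3:**
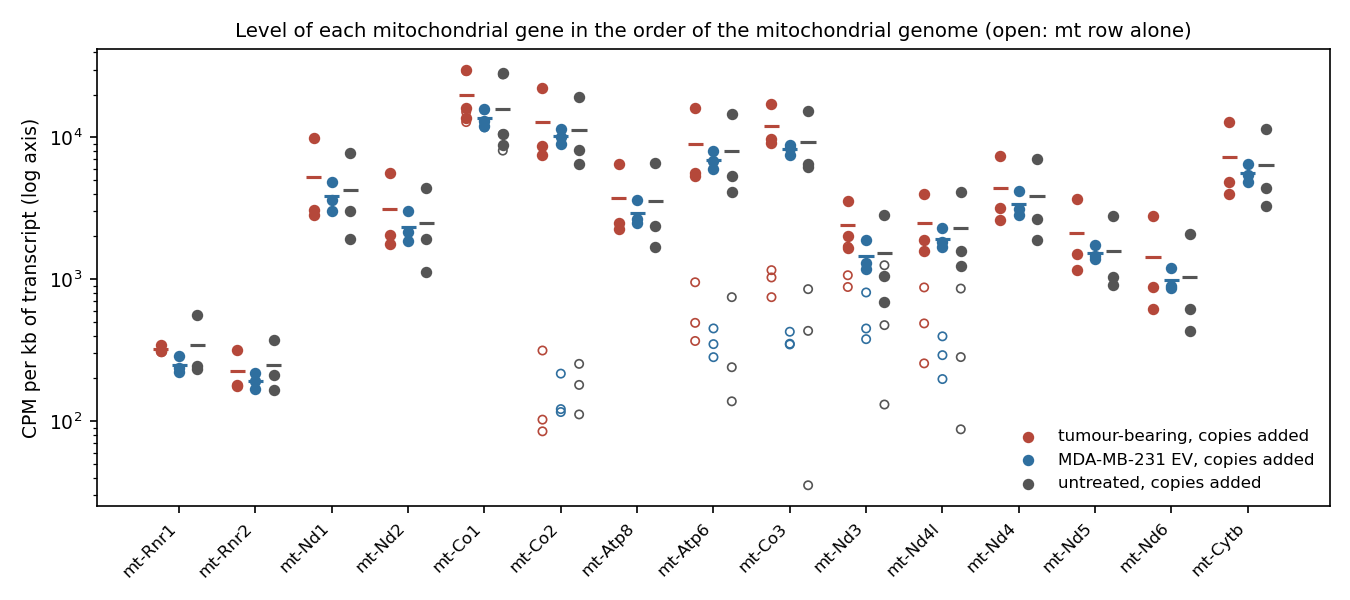
Level of the 2 rRNAs and 13 mRNAs in CPM per kilobase (log axis), in their order on the mitochondrial genome, 1 filled point per library with copies added, a dash at each group mean and open points for the mitochondrial row alone, with tumour, EV and untreated from left to right within a gene. mt-Co1 has the highest level, the open points of mt-Co2, mt-Atp6 and mt-Co3 lie far below the filled ones, and the rRNAs lie lowest.

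No member passed the test between groups in the fit across all genes. Of the 37 members, 16 passed the filter on low counts (13 mRNAs, both rRNAs and mt-Ts1), among 17876 genes tested with edgeR's quasi-likelihood test. The other 21 tRNAs were not tested. At a Benjamini-Hochberg adjusted p under 0.05, 0 of the 16 were called in tumour over untreated, where 0.218% of all genes were called, 0 in tumour over EV (0.257% of all genes) and 0 in EV over untreated (0.00559% of all genes). At an unadjusted p under 0.05, edgeR gave 0 of 16 in each comparison, where 11.9% of all genes passed in tumour over untreated, 14.1% in tumour over EV and 1.19% in EV over untreated. DESeq2, run without that filter, called 0 of the 25 members with a count in each comparison. Of 30015 genes it called 744 in tumour over untreated, 876 in tumour over EV and 16 in EV over untreated. A limma fit of the columns the authors named TPM also called 0 of 15, against 1, 8 and 6 of 16114 genes in the same order. Of the 15, 11 had an unadjusted p under 0.05 in tumour over EV, against 2.6% of all genes in that fit. Those columns summed to 1.28e+06 in tumour 17 and in tumour 22, to 704427 in tumour 21 and to 697082 to 715559 in EV libraries. The part of these totals in the 11 was not tested. The mRNAs among the 11 also moved together from library to library, so these are not separate results.

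The fitted log2 fold changes of the 13 mRNAs pointed one way in each comparison, with none past the test. For tumour over untreated they had a median of 0.46 and ran from 0.07 to 1.22 (edgeR adjusted p from 0.557 to 0.962), beside a median of -0.12 over all genes. For tumour over EV the median was 0.91 (0.63 to 1.80, adjusted p from 0.380 to 0.630), beside -0.06 over all genes. For EV over untreated it was -0.51 (-0.82 to -0.37, adjusted p 1), beside -0.00 over all genes. Such agreement in sign is not 13 separate results, since the mRNAs moved together from library to library.

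Single libraries set these medians. Without tumour 21 the median was -0.34 for tumour over untreated and 0.12 for tumour over EV. Without untreated 4 it was 1.68 for tumour over untreated and 0.80 for EV over untreated. With the copies added, a setting chosen after seeing the data, the medians were 0.42 for tumour over untreated, 0.84 for tumour over EV and -0.48 for EV over untreated.

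mt-Co1 shows the pattern behind these values. Its mitochondrial row had 23262, 45231 and 19779 CPM in tumour libraries, 18115, 23990 and 19753 CPM in EV libraries and 42815, 12446 and 16247 CPM in untreated libraries. One tumour and 1 untreated library were high, and the groups overlapped. Its log2 fold change was 0.41 (SE 1.01, edgeR adjusted p = 0.86) for tumour over untreated, 0.93 (SE 1.01, adjusted p = 0.63) for tumour over EV and -0.53 (SE 1.01, adjusted p = 1) for EV over untreated.

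mt-Cytb, the only complex III subunit made in mitochondria and outside the 7 pairs, had 5582, 14677 and 4551 CPM in tumour libraries, 5578, 7388 and 6178 CPM in EV libraries and 13061, 3751 and 5054 CPM in untreated libraries. The same 2 libraries were high, tumour 21 and untreated 4.

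mt-Nd6 had 457, 1458 and 319 CPM in tumour libraries, 453, 620 and 468 CPM in EV libraries and 1081, 223 and 322 CPM in untreated libraries. The gene lies on the other strand, and whether its row also holds reads of the opposite strand is not known. It was again highest in tumour 21 and untreated 4. Its log2 fold change was 0.55 (SE 0.88) for tumour over untreated, 0.97 (SE 0.89) for tumour over EV and -0.43 (SE 0.88) for EV over untreated.

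The 2 rRNAs differed from each other in tumour 21. mt-Rnr1 had 298, 296 and 330 CPM in tumour libraries, 211, 274 and 227 CPM in EV libraries and 535, 222 and 234 CPM in untreated libraries. Untreated 4 was high, whereas tumour 21, the library with the most mitochondrial mRNA, lay with the other tumour libraries. mt-Rnr2 had 285, 505 and 278 CPM in tumour libraries, 265, 344 and 305 CPM in EV libraries and 587, 333 and 262 CPM in untreated libraries, and was high in both tumour 21 and untreated 4. Log2 fold changes for tumour over untreated were -0.00 (SE 0.53) for mt-Rnr1 and 0.00 (SE 0.54) for mt-Rnr2. They were 0.76 (SE 0.53) and 0.64 (SE 0.55) for tumour over EV, and -0.76 (SE 0.53) and -0.64 (SE 0.55) for EV over untreated.

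**Figure D4:**
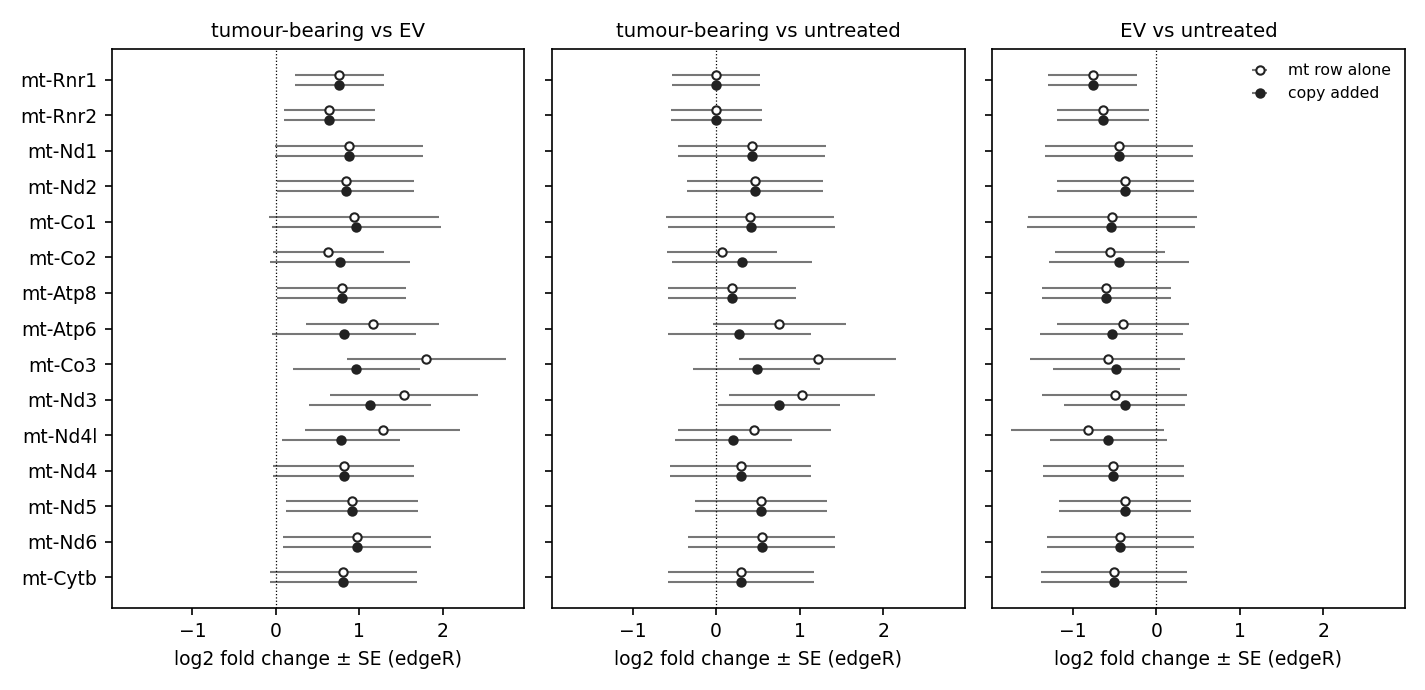
Log2 fold changes from edgeR with bars of 1 SE for the 2 rRNAs and 13 mRNAs in the 3 comparisons, from the mitochondrial row alone (open) and with the chromosome 1 copy added (filled). None passed the adjusted p of 0.05, and the medians of the 13 open mRNA points are 0.91 for tumour over EV, 0.46 for tumour over untreated and -0.51 for EV over untreated.

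The mRNAs varied together across libraries. Over the 9 libraries, the 78 pairs of mRNAs had Pearson r of log2 CPM from 0.863 to 0.998 with a median of 0.974. The rRNAs followed them less closely, with r from 0.569 to 0.887 and a median of 0.750, and mt-Rnr1 with mt-Rnr2 had r = 0.715. These are descriptions over 9 libraries that share totals, and the genes share precursors.

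The makeup of the mitochondrial mRNA pool was far steadier than its size. With the copies added, complex IV mRNAs made 54.2% to 62.3% of the pool, complex I mRNAs 21.4% to 26.2%, mt-Cytb 8.45% to 10.7% and complex V mRNAs 6.90% to 9.11%. mt-Co1 alone made 40.03%, 33.4% and 39.5% in tumour libraries, 34.7%, 34.2% and 34.3% in EV libraries and 35.6%, 35.8% and 34.2% in untreated libraries. Tumour 17 and 22 were above all others, and tumour 21 was the lowest.

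Counting the mitochondrial rows alone, 4 of the 13 shares did not overlap between tumour and untreated libraries: mt-Atp6 and mt-Nd3 were higher and mt-Atp8 and mt-Nd4 lower in tumour libraries. Between tumour and EV libraries 4 did not overlap, with mt-Atp6, mt-Co3 and mt-Nd3 higher and mt-Nd4 lower in tumour libraries, and between EV and untreated libraries 0. Over all 17876 tested genes, CPM did not overlap between tumour and untreated libraries for 11.2%, between tumour and EV libraries for 30.8% and between EV and untreated libraries for 2.55%. The members' shares are parts of 1 pool and not CPM, and 4 of 13 in tumour over EV is close to that background. Each had the smallest exact permutation p that 3 against 3 allows, 0.1, and an adjusted p of 0.49 over 39 tests. Without tumour 21, 9 shares did not overlap with the untreated ones and 10 with the EV ones, where CPM did not overlap for 24.6% and 44.7% of all genes. Leaving out any other library gave 4 to 6 shares for tumour over untreated and 4 to 5 for tumour over EV. The share over all genes was not computed for those settings.

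Adding the copies, a setting chosen after seeing the data, changed which genes these were. With them, mt-Nd3 made 1.03 ± 0.117% of the pool in tumour libraries, 0.817 ± 0.0849% in EV libraries and 0.735 ± 0.0849% in untreated libraries (SD, n = 3 each). It was 1.13%, 0.900% and 1.06% in tumour libraries against 0.794%, 0.638% and 0.773% in untreated libraries, which do not overlap. In EV libraries it was 0.768%, 0.915% and 0.767%, which overlap with the tumour ones. mt-Nd4l made 0.898%, 0.856% and 0.866% in tumour libraries, 0.939%, 0.950% and 0.913% in EV libraries and 0.990%, 0.978% and 0.980% in untreated libraries, so that all 3 groups were apart. The exact permutation p was 0.1 in each comparison without overlap, with an adjusted p of 0.78 over 39 tests. No other share was apart with copies added. For all tested genes, CPM did not overlap for 11.2% in tumour over untreated, 30.8% in tumour over EV and 2.55% in EV over untreated. By its mitochondrial row alone mt-Nd4l pointed the other way in tumour libraries: its share was 0.268 ± 0.0643% there, against 0.204 ± 0.0511% in EV libraries and 0.217 ± 0.0976% in untreated libraries, with overlap. mt-Atp6, mt-Atp8, mt-Co3 and mt-Nd4 overlapped between the groups once the copies were added.

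Tumour 17 and 22 also form a set of their own in the second kind of column the authors deposited, named TPM. Genes with 0 counts share an offset there, equal in at least 99.7% of such genes for 2 libraries of a set and in at most 1.49% otherwise. The sets are tumour 17 with 22, untreated 7 alone, and the other 6 libraries. In the counts with copies added, tumour 17 and 22 lay outside the other 7 libraries in 5 of the 13 shares, with mt-Co1 and mt-Nd3 higher and mt-Co2, mt-Atp6 and mt-Cytb lower. For mt-Cytb the shares were 8.97% and 8.45% in tumour 17 and 22 against 9.91% to 10.7% in the others. For mt-Co2 they were 9.52% and 9.53% against 10.6% to 11.7%. What the sets stand for is not given by the labels, and their part in these shares was not tested.

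**Figure D5:**
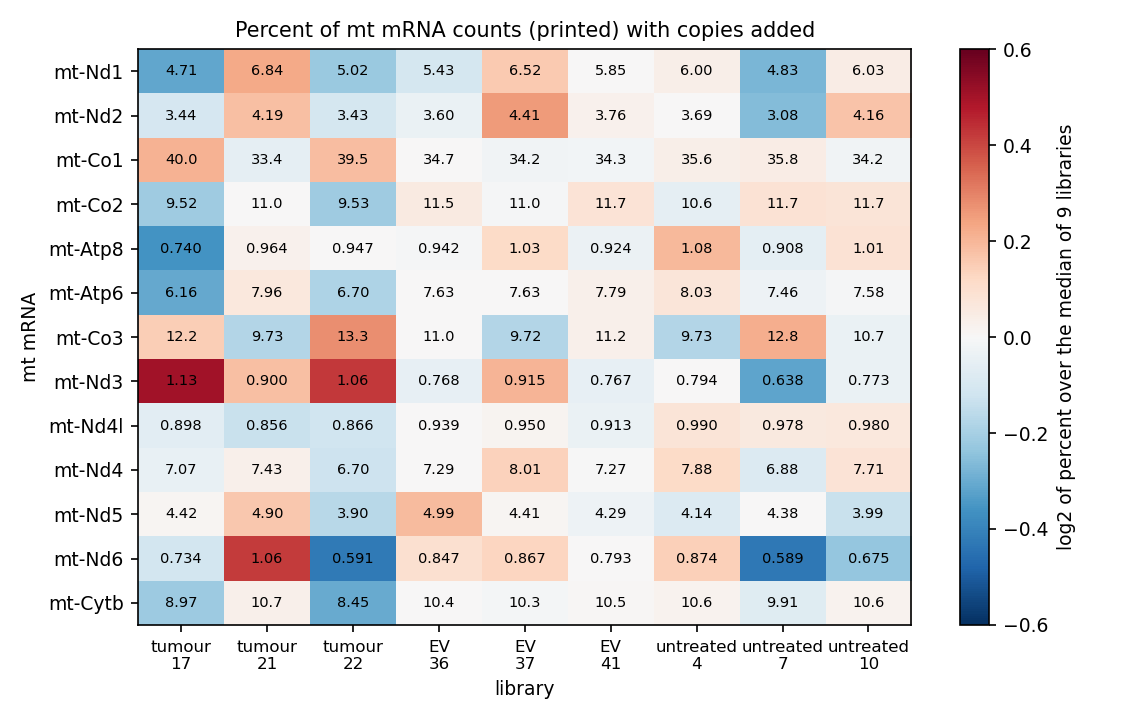
Percent of the mitochondrial mRNA counts (chromosome 1 copies added) taken by each of the 13 mRNAs, printed for each library in the order tumour, EV and untreated, with colour for the log2 of that percent over the median of the 9 libraries. mt-Nd3 and mt-Co1 are highest in tumour 17 and 22, and mt-Nd4l is 0.856% to 0.898% in tumour libraries, 0.913% to 0.950% in EV libraries and 0.978% to 0.990% in untreated libraries.

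Mitochondrial mRNA was then set against the nuclear mRNAs of the same complexes, a list of 74 subunit genes. Mitochondrial counts per nuclear count were 2.77, 6.32 and 2.46 in tumour libraries, 3.67, 3.61 and 3.55 in EV libraries and 5.71, 2.96 and 3.22 in untreated libraries. Means were 3.85 ± 2.15 in tumour libraries, 3.61 ± 0.0620 in EV libraries and 3.96 ± 1.52 in untreated libraries (SD, n = 3 each), so that the EV libraries lay closest together. Exact permutation tests gave p = 0.7 for tumour over untreated, and p = 1 for tumour over EV and for EV over untreated. Tumour 21 and untreated 4 thus stood apart in mitochondrial mRNA also relative to the nuclear subunits.

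The nuclear subunits themselves took 1.57%, 1.54% and 1.51% of tumour libraries, 1.00%, 1.40% and 1.14% of EV libraries and 1.53%, 0.823% and 1.04% of untreated libraries. Tumour 21 did not stand out among them. Among all tested genes, 0.218% were called in tumour over untreated, 0.257% in tumour over EV and 0.00559% in EV over untreated. Of 75 tested rows of the list, none was called in tumour over untreated (median log2 fold change 0.62) or in EV over untreated (median -0.09). In tumour over EV, 2 were called higher (median 0.70). Of these 2, Atp5o is set aside as a call, since its 2 gene IDs carry identical values in the EV columns. It stays in the summed nuclear counts and so in the ratios above. Its called row had 1.92, 0.0821 and 0.831 CPM in EV libraries, 262, 244 and 244 CPM in tumour libraries and 231, 118 and 183 CPM in untreated libraries. The other called gene, Cox6a2, is the complex IV isoform of heart and skeletal muscle. It had 16.4, 28.6 and 20.1 CPM in tumour libraries against 0.271, 0.0411 and 0.231 CPM in EV libraries, where its log2 fold change was 7.37 (SE 1.10, edgeR adjusted p = 0.049). In untreated libraries it had 0.254, 0 and 0.249 CPM, and the fold change for tumour over untreated did not pass (adjusted p = 0.054). Of the 8 skeletal muscle markers, 6 were called higher in tumour libraries in both comparisons.

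Lists of other nuclear genes tied to mitochondria showed no called change. None of 20 genes of mitochondrial DNA maintenance and transcription was called in any comparison, and their median log2 fold change for tumour over untreated was -0.07. None of 31 genes of mitochondrial RNA processing and decay (median 0.21), 14 regulators of mitochondrial biogenesis (0.16) and 14 mitochondrial mass markers outside the respiratory chain (0.38) was called either. Over all genes that median was -0.12. The share of all genes called was 0.218% in tumour over untreated, 0.257% in tumour over EV and 0.00559% in EV over untreated. At an unadjusted p under 0.05, edgeR gave 0 to 2 genes of each of these 4 lists in a comparison. Of all genes, 11.9% had such a p in tumour over untreated, 14.1% in tumour over EV and 1.19% in EV over untreated. The summed biogenesis regulators had r = -0.92 with mitochondrial mRNA across the 9 libraries, the mass markers 0.66 and the nuclear subunits 0.74, as descriptions.

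Among 8128 genes with a mean of at least 20 CPM, the one whose level followed mitochondrial mRNA most closely was Tfb2m, the factor that opens mitochondrial promoters together with the mitochondrial RNA polymerase, with r = 0.986 over the 9 libraries. Tfb2m had 38.4, 51.4 and 37.2 CPM in tumour libraries, 38.7, 42.5 and 37.3 CPM in EV libraries and 51.5, 31.5 and 34.4 CPM in untreated libraries. It was highest in tumour 21 and untreated 4 and lowest in untreated 7, over a much narrower range than the mitochondrial mRNAs. Riok3, a RIO family kinase, had r = 0.977, the dolichol-phosphate mannosyltransferase subunit Dpm1 0.966, the complex IV subunit Cox7b 0.964 and the proteasome subunit Psma6 0.961.

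Cox7b had 126.8, 220.4 and 128.9 CPM in tumour libraries, 113.4, 171.6 and 141.5 CPM in EV libraries and 208.0, 103.4 and 119.9 CPM in untreated libraries. The strongest opposite patterns were those of Tspyl1 (r = -0.996), Klhl18 (-0.993) and Rab11fip3 (-0.992). Tspyl1 had 71.4, 48.5 and 73.1 CPM in tumour libraries, 75.5, 66.8 and 72.4 CPM in EV libraries and 49.3, 91.5 and 78.0 CPM in untreated libraries. It was lowest in tumour 21 and untreated 4, the mirror image of mitochondrial mRNA. These genes were picked as extremes of 8128 genes over 9 libraries, so their r values carry no test.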

How the data were processed

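RNA-seq of eWAT from 9 mice gave 1 deposited table. The study's methods list SeqPrep and Sickle for trimming, HISAT2 for alignment, StringTie for assembly and RSEM for quantification. The labels name a TruSeq and a SMARTER kit. The submitters' processing notes name Bowtie 0.12.2, mm8 and mm9. Which annotation release was used is not given in those sources, and coordinates are left out. The authors deposited expected counts (estimated counts, not whole numbers) and columns named TPM, used here as a score because genes with 0 counts carry values above 0 and totals differ from TPM.

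Of 53700 IDs, 52093 matched a symbol. After rounding, all 9 libraries entered 1 quasi-likelihood fit by group (edgeR 4.0.16, R 4.3.3, TMM scaling, filterByExpr), with Benjamini-Hochberg adjustment over 17876 genes. The SE is the fold change over the square root of F. CPM and shares are relative to library totals. Single values were compared by exact 2-sided permutation tests (scipy 1.17.1), whose smallest p is 0.1. Other tools tried were DESeq2 1.42.0 on the counts and limma 3.58.1 on log2 of the score plus 1. Libraries held 20097743 to 26149300 counts, and the floor of 3 counts covers counting error only. Scripts were tested on simulated data with 200 changed genes. In the simulated tumour against untreated comparison, edgeR recovered 33 of 100 genes changed 4 times and 99 of 100 changed 32 times. Member changes of about 4 times could thus have been missed. Copies were found by aligning GENCODE M21 transcripts (at least 150 bases at 90% identity, and at least 99% for a pair). Members and lists were chosen with earlier results of these data known. Named were all mRNAs and rRNAs singly or in ranges, the 5 tRNAs with the highest mean CPM, the 5 genes most and 3 least correlated with summed mt mRNA, and called list genes. The genes whose own fold changes or shares are printed were chosen after their values were seen.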

Additional observations from a re-analysis of the deposited data

How the results depend on the processing

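No paired analysis was possible because the replicate numbers differ between the 3 groups. Most tRNAs had few counts or none, and the reason was not tested. In all settings that kept more than 1 library in each group compared, no mitochondrial gene was called in the edgeR fits. The smallest adjusted p was 0.0850 (tumour over untreated, a library left out). Without untreated 4, edgeR gave 11 of 16 members an unadjusted p under 0.05 for tumour over untreated, where 5370 of 18498 genes had one. It gave 4 of 16 for tumour over EV (3604 genes) and 0 of 16 for EV over untreated (1499 genes). DESeq2 called 0 of 25 members, against 744, 876 and 16 of 30015 genes for tumour over untreated, tumour over EV and EV over untreated. At most 1 member had an unadjusted p under 0.05 there (tumour over EV, where 3676 genes did). The limma fit on the TPM columns called 0 of 15, against 1, 8 and 6 of 16114 genes in that order. Of the 15, 11 had an unadjusted p under 0.05 for tumour over EV, against 2.6% of all genes. Of the log2 fold changes of the 13 mRNAs and 2 rRNAs, 25 of 135 changed sign for tumour over untreated when a library was left out, 3 of 135 for tumour over EV and 15 of 135 for EV over untreated. The fat-rich libraries (Adipoq above 2000 CPM) leave 3 tumour libraries with EV 37 and untreated 4 alone, so all values below from them set a group against 1 library that is assumed to vary like the others. There 13 of 15 changed sign for tumour over untreated, for which untreated 4, a library high in mitochondrial mRNA, is the only control. Leaving out the ovary libraries (Inha above 100 CPM) removes untreated 10 and leaves EV 37 as the only EV library. There 5 of 15 changed sign for tumour over untreated. The causes were not tested.

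For the median log2 fold change of the 13 mRNAs, leaving out a library gave -0.34 to 1.68 for tumour over untreated, 0.12 to 1.25 for tumour over EV and -0.88 to 0.80 for EV over untreated. The fat-rich libraries gave -0.68 for tumour over untreated, and a term for the offset sets gave 1.78 for tumour over EV, where tumour 21 is the only tumour library in a set with EV libraries. For mt-Co1 the ranges were -0.13 to 1.59, 0.40 to 1.22 and -0.89 to 0.66 in the same order, and the fat-rich value for tumour over untreated was -0.68. For mt-Nd6 they were -0.50 to 2.04, -0.0706 to 1.38 and -0.85 to 1.06, with -0.65 in fat-rich libraries for tumour over untreated and 0.44 with limma for EV over untreated. mt-Rnr1 ran from -0.33 to 0.94 for tumour over untreated (0.13 with limma) and from -1.09 to 0.18 for EV over untreated. mt-Rnr2 ran from -0.42 to 0.78 for tumour over untreated and from -0.98 to 0.13 for EV over untreated. Its value for tumour over untreated, near 0, was -0.0173 with DESeq2, -0.0189 with RLE size factors, -0.0108 with no filter, -0.15 with library totals, -0.33 without the ovary libraries and -0.87 in fat-rich libraries.

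The log2 ratio of the mRNA share ran from -0.0441 to 0.92 for tumour over untreated with a library left out, from -0.0720 to 0.63 for tumour over EV and from -0.35 to 0.57 for EV over untreated. It was -0.69 for tumour over untreated in fat-rich libraries. For EV over untreated it was -0.11 with TMM scaling, -0.42 from the TPM columns and -0.79 in fat-rich libraries. The rRNA share ran from -0.27 to 0.32 for tumour over untreated (0.24 with TMM scaling) and from -0.55 to 0.0387 for EV over untreated. The tRNA share ran from -0.17 to 0.42 for tumour over untreated (-0.10 without the ovary libraries, -0.61 in fat-rich ones), from -0.0341 to 0.66 for tumour over EV and from -0.57 to 0.11 for EV over untreated. The log2 ratio to nuclear subunits ran from -0.54 to 0.18, -0.47 to 0.22 and -0.25 to 0.23 for tumour over untreated, tumour over EV and EV over untreated. By geometric means it was 0.0871, 0.0300 and 0.0572 in that order. The rRNA part of the mitochondrial total ran from -0.195 to 0.204 percentage points for tumour over EV, and was 0.0413 both without the ovary libraries and in fat-rich libraries, which is 1 and the same comparison with EV 37 as the only EV library and was chosen after seeing the data.

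The number of mRNA shares that did not overlap between groups was 4 to 9 for tumour over untreated with a library left out, 0 from the TPM columns and 2 with copies added (chosen after seeing the data). For tumour over EV it was 4 to 10, with 0 from the TPM columns, 2 without mt-Co1 and 1 with copies added. For EV over untreated it was 0 to 2, with 1 without mt-Co1 and 1 with copies added. Over all tested genes in all 9 libraries, CPM did not overlap for 11.2% in tumour over untreated, 30.8% in tumour over EV and 2.55% in EV over untreated. Without tumour 21, it did not overlap for 24.6% in tumour over untreated and 44.7% in tumour over EV. From the TPM columns the mt-Co1 share differed by -1.45 percentage points for tumour over untreated, -2.16 for tumour over EV and 0.717 for EV over untreated, and the mt-Nd3 share by -0.499 for EV over untreated. With a library left out, the mt-Nd3 share ran from -0.0642 to 0.0925 for EV over untreated. The mt-Nd4l share ran from -0.00382 to 0.0891 for tumour over untreated and from -0.0676 to 0.0253 for EV over untreated. It was -0.0658 from the TPM columns and -0.109 with copies added for tumour over untreated, and -0.0608 with copies added for tumour over EV.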
